A study of Mus musculus with 2 samples.

Results

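The axon guidance ligands and receptors of the developing mouse eye cup are described here as 66 of the 31053 genes counted. They were chosen by gene symbol alone: every semaphorin of classes 3 to 7, plexin, Eph receptor, ephrin, Slit, Robo and Unc5 gene of the table, with the netrins *Ntn1*, *Ntn4* and *Ntn5* and the receptor *Dcc*. This gave 20 semaphorins, 9 plexins, 14 Eph receptors, 8 ephrins, 3 Slits, 4 Robos, 3 netrins and 5 netrin receptors (*Dcc* and *Unc5a* to *Unc5d*). The cells came from e13.5 mouse eye cups from which lens, cornea and optic nerve had been taken off, and were counted with droplet-based 3' single-cell RNA sequencing. There were 2 libraries, 1 per genotype, each from 3 pooled samples. The control library was *Myrf* fl/fl, and the mutant library was *Rx>cre* *Myrf* fl/fl, in which Cre driven by an *Rx* transgene acts in the early eye field that forms the retina and the retinal pigment epithelium (RPE). Both libraries carry the floxed *Myrf* alleles, so the genotypes differ in the Cre transgene. The libraries also come from different pools of samples, which the design cannot tell apart from genotype.

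These families are the classical cues that steer growing axons and migrating cells. Ephrins are ligands held in the membrane, and in the retina opposing gradients of ephrins and Eph receptors label positions that ganglion cell axons later match to positions in the brain. Semaphorins act through plexins, Slits are secreted repellents read by Robo receptors, and netrin-1 attracts axons through Dcc and repels them through Unc5 receptors. Several members also act outside neurons, in vessel sprouting and in the movement of neural crest cells into the mesenchyme around the eye.

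The libraries held 6039 control and 6754 mutant barcodes, and 5451 and 6309 cells were kept, with median counts of 11331 and 11160 unique molecular identifiers (UMIs) per cell. The libraries shared 72 barcodes. The cells fell into 27 clusters, of which 23 were placed in 13 classes, named X-like from marker genes. The remaining 4 clusters, with 14.7% of control and 10.6% of mutant cells, stayed unnamed and are left out of all comparisons of classes. Among them, cluster 17 was deep, with 289 cells and a median of 14096 UMIs. It scored highest for pericyte markers (mean z score 1.87), of which too few were detected to name it. Periocular mesenchyme markers came second at 1.40, within the range of 1.06 to 1.43 of the named mesenchyme clusters. *Myrf*, which encodes the deleted transcription factor, was at 74.8 CPM (155 UMIs) in control and 20.1 CPM (30 UMIs) in mutant RPE-like cells, although a 3' tag may lie outside the deleted part. Levels are in CPM, that is the UMIs of a gene scaled to 1000000 UMIs of the class in that library, always with the control value first and the mutant value second. CPM of a 3' assay compares 1 gene between classes, not different genes. Each genotype had a single library, so the spread between replicates is unknown and no differences were tested. Brackets hold exact 95% intervals, which cover counting error only.

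Of the 66 members, 58 had at least 50 UMIs in each library. The other 8 were *Epha8*, *Ntn5*, *Plxnb3*, *Robo3*, *Sema3g*, *Sema4f*, *Sema7a* and *Unc5d*, with 6 to 58 UMIs per library over all named classes. Free RNA was gauged in the red blood cell-like class, where no member should be expressed. There, 33 members of the control library and 51 of the mutant one had a UMI, with medians of 0.238 and 0.613 UMIs per 100 cells over the members. The highest was *Plxnb2* in the control library at 7.14 UMIs per 100 cells, and *Epha5* in the mutant at 13.3. In their leading classes the same 2 genes had 92.5 and 433 UMIs per 100 cells in those libraries. The red blood cell-like cells of the mutant library also carried more UMIs of other genes, at 3821 per cell without haemoglobin against 2992 in the control.

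Members were found at 10 CPM or more in every class except red blood cells. In all, 50 members reached 10 CPM in both libraries in at least 1 class. Periocular mesenchyme-like cells had the most, 26 members or 39.4% against 24.8% of all genes, followed by RPE-like cells with 25 members or 37.9% against 24.2% of all genes. Schwann or neural crest-like cells had 22 members (33.3% against 21.7%), surface ectoderm-like cells 20 (30.3% against 22.0%) and neurogenic precursor-like cells 18 (27.3% against 22.5%). Ganglion cell-like and amacrine or horizontal cell-like cells had 21 each (31.8%, against 22.5% and 22.4%), and melanocyte-like cells 14 (21.2% against 21.4%). Endothelial-like cells with 11 (16.7% against 21.3%) and muscle precursor-like cells with 10 (15.2% against 19.0%) lay below the share of all genes. So did retinal progenitor-like cells with 13, or 19.7% against 22.7% of all genes, and macrophage-like cells with 4, or 6.06% against 21.3%.

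**Figure D1:**
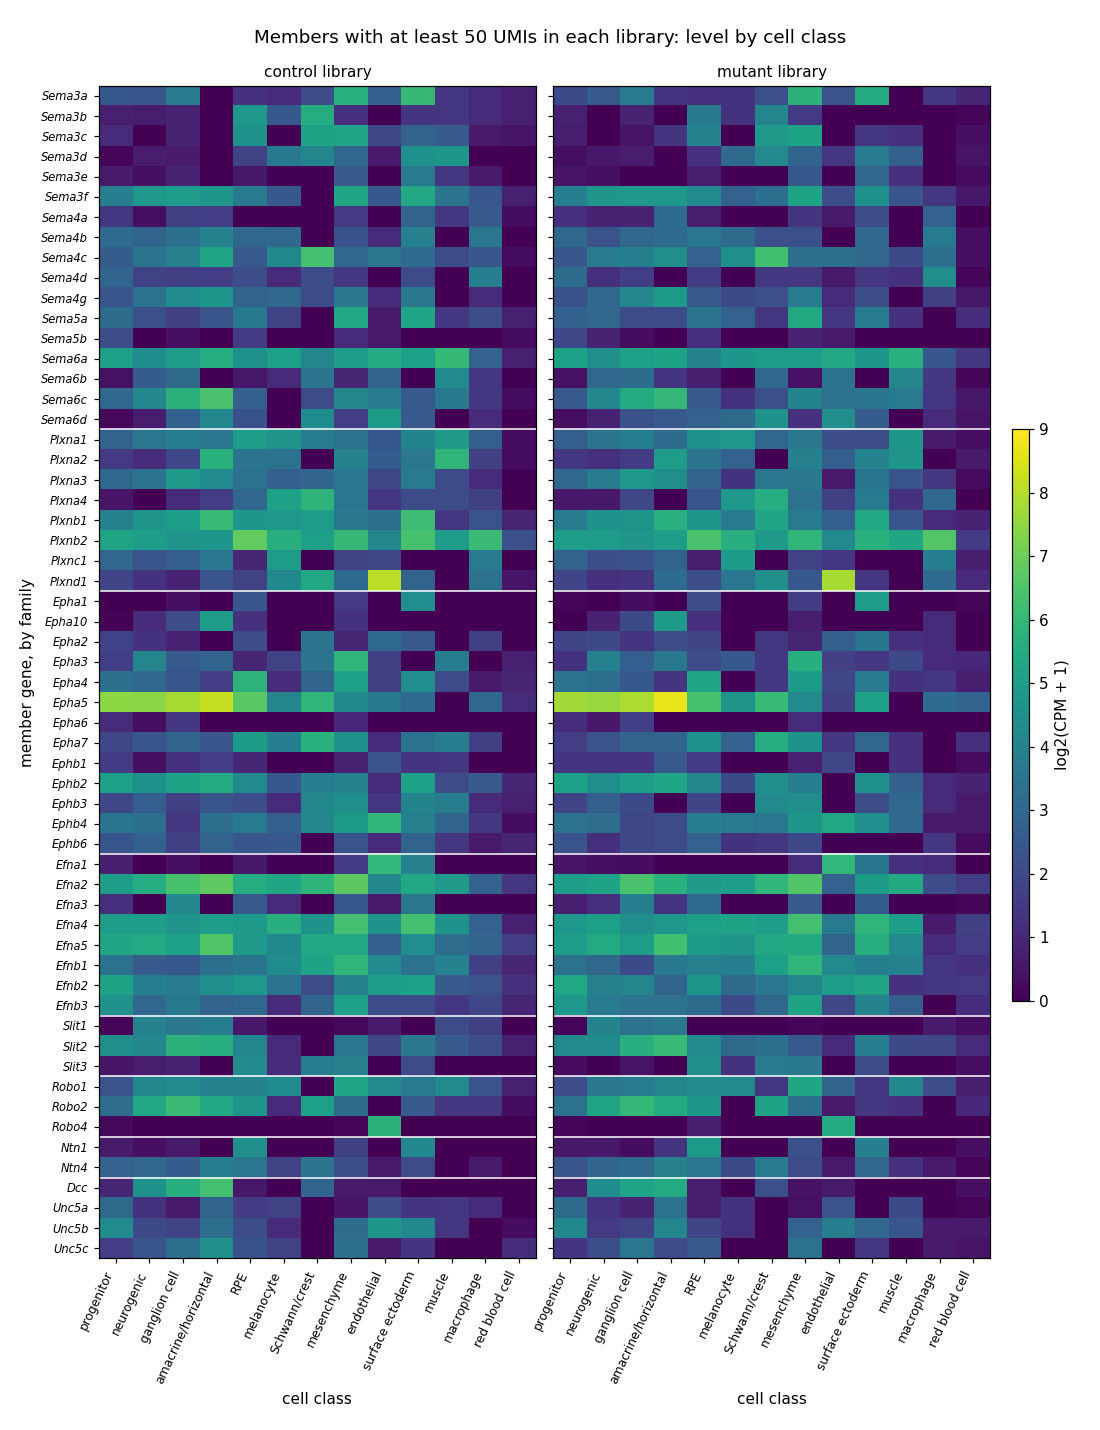
Level of the 58 members with at least 50 UMIs in each library, as log2(CPM + 1) by colour, in 13 cell classes (columns) of the control (left) and mutant (right) library, with white lines between families. The panels show the same bright cells in both libraries, such as *Plxnd1* in endothelial-like cells at 267 and 224 CPM and *Epha5* in the retinal classes, and near-empty red blood cell columns.

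The class of highest CPM was the same in both libraries for 39 of the 58 members, beside 54.5% of all genes of that depth. For 9 members that class was also at least 2-fold over the next in both libraries, beside 11.9% of all genes. These 9 spread over 7 classes. Endothelial-like cells led for *Efna1* at 61.5 and 61.7 CPM, *Plxnd1* and *Robo4*, mesenchyme-like cells for *Epha3* at 58.2 and 49.6 CPM, and melanocyte-like cells for *Plxnc1*, a plexin that binds semaphorin 7A, at 30.1 and 28.7 CPM. *Sema4c*, a transmembrane semaphorin, led in the small Schwann or neural crest-like class at 79.3 and 76.0 CPM from 24 and 43 UMIs. Macrophage-like cells led for *Sema4d*, a semaphorin known from immune cells, at 13.4 and 20.8 CPM, with retinal progenitor-like cells next at 6.58 and 8.05 CPM. The receptors *Epha1* (20.4 and 30.6 CPM in surface ectoderm-like cells) and *Epha10* (29.6 and 28.6 CPM in amacrine or horizontal cell-like cells) rested on 13 to 18 UMIs per library.

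The members at least 2-fold higher in dorsal than in ventral progenitor-like cells of both libraries were *Unc5b*, a netrin receptor, and the B ephrins *Efnb1* and *Efnb2*. The 250 bases before the RefSeq start of these genes and of *Epha5*, the Eph receptor with the most UMIs in the retina, are shown. *Epha5* was also higher dorsally in both libraries, but passed 2-fold only in the control. The sequences are from GRCm38.p6, read 5′ to 3′ along the gene. Capitals mark GGTGTG, the half-site that T-box factors such as Tbx5 bind, or CACACC on the other strand, and TAATTA, a core that homeodomain factors such as Vax2 bind.

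Unc5b, chr10:60831582-60831831, - strand: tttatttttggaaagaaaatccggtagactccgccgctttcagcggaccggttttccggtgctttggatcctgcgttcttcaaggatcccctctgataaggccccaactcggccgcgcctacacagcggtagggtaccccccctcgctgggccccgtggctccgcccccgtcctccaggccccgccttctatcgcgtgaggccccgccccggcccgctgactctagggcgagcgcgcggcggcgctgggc
Efnb2, chr8:8661243-8661492, - strand: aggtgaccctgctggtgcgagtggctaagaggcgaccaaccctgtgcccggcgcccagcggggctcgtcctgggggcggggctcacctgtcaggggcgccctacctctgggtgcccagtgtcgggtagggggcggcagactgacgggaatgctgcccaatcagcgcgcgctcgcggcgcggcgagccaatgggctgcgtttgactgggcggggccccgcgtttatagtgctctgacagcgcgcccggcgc
Efnb1, chrX:99135811-99136060, + strand: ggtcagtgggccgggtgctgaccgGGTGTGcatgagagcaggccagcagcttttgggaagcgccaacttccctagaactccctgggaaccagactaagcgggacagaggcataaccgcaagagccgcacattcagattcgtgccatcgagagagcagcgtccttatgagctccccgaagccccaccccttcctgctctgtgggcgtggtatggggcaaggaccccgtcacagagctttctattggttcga
Epha5, chr5:84417383-84417632, - strand: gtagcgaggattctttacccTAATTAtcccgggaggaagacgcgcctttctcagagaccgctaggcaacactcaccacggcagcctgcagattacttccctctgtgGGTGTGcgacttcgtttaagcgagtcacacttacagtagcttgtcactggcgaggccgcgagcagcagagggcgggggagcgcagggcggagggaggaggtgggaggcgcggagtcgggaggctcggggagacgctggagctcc

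The capitals show 1 GGTGTG before *Efnb1*, 1 GGTGTG and 1 TAATTA before *Epha5*, and neither before *Unc5b* or *Efnb2*. Among 32851 promoters of the same length, 16.3% held GGTGTG and 4.84% held TAATTA on either strand, and these motifs do not overlap. The GC content was 66.8% for *Unc5b*, 72.0% for *Efnb2*, 60.0% for *Efnb1* and 62.4% for *Epha5*, beside a median of 52.4% over all promoters. The sequence before *Efna5*, not shown, held neither motif and had 74.8% GC, and that of *Unc5a* was not taken. A match is only a description of the letters. *Tbx5* and *Vax2* also served to sort the cells by pole, and whether their proteins act on these genes was not tested. The genes lie on different chromosomes, *Unc5b* on chromosome 10 (60762593 to 60831581), *Efnb2* on 8 (8617434 to 8661242), *Efnb1* on X (99136130 to 99148991) and *Epha5* on 5 (84054761 to 84417382) in the GENCODE annotation of GRCm38.

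To place cells, retinal progenitor-like cells were sorted by the transcription factors that mark each pole. A dorsal cell had a UMI of *Tbx5* and none of *Vax2* or *Vax1*, and a ventral cell the reverse, which gave 42 and 800 cells in the control and 55 and 756 in the mutant library. Of 37 members with enough UMIs (at least 20 in each library over both poles), 3 were at least 2-fold higher dorsally in both libraries, beside 1.14% of all genes, and 1 was at least 2-fold lower, beside 0.757%. Each library gave its own value, and the poles were compared within it.

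*Unc5b* was at 89.9 CPM in dorsal and 4.67 CPM in ventral control cells, and at 86.6 and 3.73 CPM in mutant cells. The log2 ratios of dorsal over ventral were 4.27 [3.74 to 4.80] and 4.54 [3.96 to 5.13]. Unc5b repels axons on netrin binding and also acts in vessel sprouts. *Efnb2*, a transmembrane ligand of the EphB receptors, was at 93.7 against 16.5 CPM in control and 108 against 20.4 CPM in mutant cells, with log2 ratios of 2.51 [2.10 to 2.90] and 2.41 [2.04 to 2.77]. *Efnb1*, its close relative, was at 21.8 against 5.43 CPM and 18.0 against 4.19 CPM, with log2 ratios of 2.01 [1.14 to 2.80] and 2.11 [1.16 to 2.98]. The dorsal values of all 3 genes lay far above the ventral ones in both libraries, and the intervals of the 2 libraries overlapped for each gene. The sizes of the ratios depended on the cells counted. Without cells over 20000 UMIs *Unc5b* was at 3.12 in the control, with cells thinned to 3000 UMIs *Efnb2* was at 1.43 in the mutant, and with means over cells *Efnb1* was at 3.63 in the control.

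*Efnb3*, the remaining B ephrin, was at 20.5 against 22.2 CPM in control and 34.9 against 23.6 CPM in mutant cells, with intervals that held 0. The EphB receptors, which read the B ephrins, did not reach 2-fold either way in both libraries. *Ephb2* was at 32.1 against 34.3 CPM and 39.7 against 34.7 CPM (log2 ratios -0.10 [-0.74 to 0.49] and 0.20 [-0.36 to 0.71]). *Ephb3* and *Ephb1* had 1 to 5 dorsal UMIs per library, which leaves their order undetermined. *Ephb1*, the receptor known from ipsilateral ganglion cell axons, had 38 and 31 UMIs in all progenitor-like cells (1.97 and 1.62 CPM) and stayed at or below 4.77 CPM in every class.

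*Epha5* was also higher dorsally, at 299 against 130 CPM in the control and 312 against 176 CPM in the mutant library, with log2 ratios of 1.20 [1.0 to 1.40] and 0.82 [0.63 to 1.01]. It passed 2-fold only in the control library. *Sema6a*, a transmembrane semaphorin, was at 57.8 against 32.2 CPM and 52.9 against 33.1 CPM (log2 ratios 0.84 and 0.68). *Unc5a*, a relative of *Unc5b*, lay the other way, with 2 dorsal UMIs in each library against 97 and 91 ventral ones. Its log2 ratios were -1.68 [-4.75 to 0.21] and -1.82 [-4.88 to 0.08], so that both intervals still held 0, and without cells over 20000 UMIs the control value was -0.77, short of 2-fold. *Efna5* was at 20.5 against 49.0 CPM in the control library only, and at 36.1 against 37.9 CPM in the mutant.

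**Figure D2:**
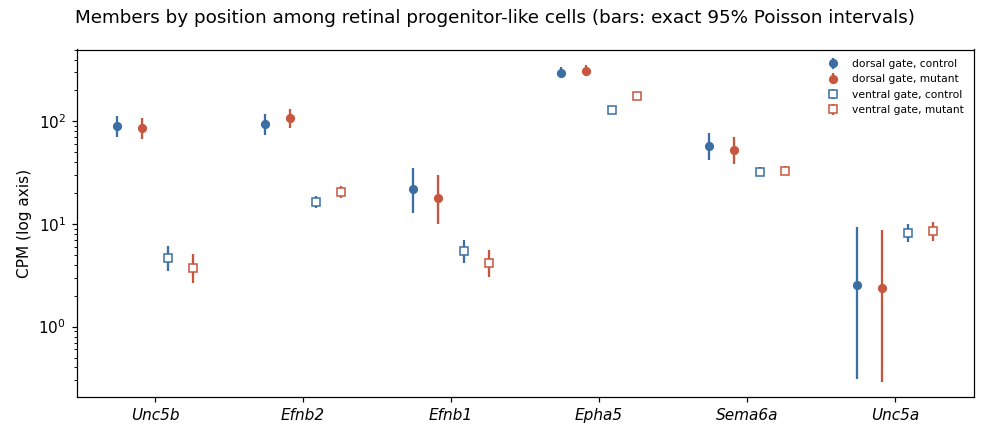
CPM on a log axis of 6 members in dorsal (filled circles) and ventral (open squares) retinal progenitor-like cells of the control (blue) and mutant (red) library, with exact 95% Poisson intervals. *Unc5b*, *Efnb2* and *Efnb1* separate by pole in both libraries, with *Unc5b* at 89.9 and 86.6 CPM dorsally against 4.67 and 3.73 CPM ventrally.

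Cells with a UMI of *Pax2*, the marker of the optic stalk and disc, numbered 66 among control and 71 among mutant cells, against 1561 and 1655 progenitor-like cells without one. Of 42 members tested, 0 were 2-fold apart the same way in both libraries, beside 1.15% of all genes higher and 0.442% lower in *Pax2* cells. *Unc5b* was lower in them in both, at 9.97 against 19.8 CPM and 6.40 against 18.2 CPM (log2 ratios -0.99 [-2.06 to -0.10] and -1.51 [-2.83 to -0.45]). *Efnb2* was at 29.9 against 36.1 CPM in the control and 18.3 against 42.1 CPM in the mutant.

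Retinal ganglion cells are the neurons whose axons leave the eye, so their receptors were compared with those of the progenitors. Of 40 members tested, which had at least 50 UMIs in each library over both classes, 16 were at least 2-fold higher in ganglion cell-like than in progenitor-like cells in both libraries, beside 11.6% of all genes, and 8 were at least 2-fold lower, beside 12.8%. The higher members held both Robo genes tested, 3 of 6 plexins, 4 of 10 semaphorins, 2 of 9 Eph receptors, 2 of 7 ephrins, 2 of 4 netrin receptors and the Slit tested. Here and below, classes were compared as wholes and not sorted by pole. *Unc5b*, *Efnb2* and *Efnb1* differed by pole among progenitor-like cells, and the part of position in their class differences was not tested.

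*Dcc*, the netrin receptor that ganglion cell axons need to leave through the optic disc, was at 49.4 and 37.1 CPM in ganglion cell-like cells against 0.932 and 0.679 CPM in progenitor-like cells (log2 ratios 5.73 [5.03 to 6.52] and 5.77 [4.96 to 6.71]). Neurogenic precursor-like cells lay between, at 22.0 and 19.9 CPM. Of all classes, the small amacrine or horizontal cell-like class (44 and 60 cells) had the highest CPM of *Dcc* in both libraries. *Unc5c*, a receptor for repulsion by netrin, was at 8.80 and 10.5 CPM against 2.07 and 1.57 CPM (log2 ratios 2.09 and 2.75). *Unc5b* and *Unc5a* went the other way, and *Unc5d*, with 7 and 12 UMIs in all, was too scarce to compare. *Unc5b* was at 2.56 and 2.63 CPM in ganglion cell-like cells against 19.3 and 17.5 CPM in progenitor-like cells (log2 ratios -2.92 [-4.06 to -1.98] and -2.73 [-3.70 to -1.91]). *Unc5a* was at 0.568 and 0.878 CPM (2 and 4 UMIs) against 7.56 and 8.0 CPM. The ligand *Ntn1* was nearly absent from these classes, with 2 and 1 UMIs in ganglion cell-like cells and 0.57 and 0.523 CPM in progenitor-like cells.

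*Robo2*, a receptor for the Slit repellents, was at 68.7 and 62.8 CPM in ganglion cell-like, 40.9 and 37.5 CPM in neurogenic precursor-like, and 8.39 and 9.56 CPM in progenitor-like cells (ganglion cell over progenitor, log2 ratios 3.03 [2.74 to 3.33] and 2.71 [2.44 to 2.99]). *Robo1* followed the same order with lower ratios, at 18.2 and 12.3 CPM against 3.88 and 3.34 CPM (log2 ratios 2.23 and 1.88). The ligands *Slit2* and *Slit1* were present in the same classes, though single cells with both ligand and receptor were not counted. *Slit2* was at 53.7 and 50.7 CPM in ganglion cell-like against 21.0 and 18.9 CPM in progenitor-like cells (log2 ratios 1.36 [1.10 to 1.61] and 1.43 [1.18 to 1.67]). *Slit1* had 2 UMIs per library in all progenitor-like cells, and was at 15.1 and 15.4 CPM in neurogenic precursor-like and 10.8 and 9.44 CPM in ganglion cell-like cells. Its log2 ratios of neurogenic over progenitor were 7.18 [5.26 to 10.27] and 7.21 [5.29 to 10.28]. The third ligand, *Slit3*, was at or below 0.852 CPM in these 3 classes.

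Among semaphorins, *Sema6c* was at 54.5 and 45.2 CPM in ganglion cell-like against 7.30 and 4.70 CPM in progenitor-like cells (log2 ratios 2.90 and 3.26). Its highest CPM of all classes lay in amacrine or horizontal cell-like cells in both libraries. *Sema3a*, a secreted repellent, was at 11.9 and 11.6 CPM against 4.56 and 3.03 CPM. *Sema5b*, a transmembrane semaphorin that restrains retinal neurites, was found in the progenitors, at 3.42 and 2.82 CPM (66 and 54 UMIs) against 1 UMI in the ganglion cell-like cells of each library. *Sema5a*, which acts with it, was at 8.03 and 5.91 CPM in progenitor-like and 2.27 and 3.29 CPM in ganglion cell-like cells. *Sema6a* was near even, at 33.6 and 34.6 CPM in progenitor-like and 29.5 and 34.0 CPM in ganglion cell-like cells. Its plexin receptors differed by class. *Plxna2* was at 52.9 and 30.2 CPM in amacrine or horizontal cell-like cells against 2.84 and 1.98 CPM in ganglion cell-like cells, whereas *Plxna4* was at 2.12 CPM and at 0 UMIs in amacrine or horizontal cell-like cells and at 1.14 and 2.85 CPM in ganglion cell-like cells. *Plxna3* was the plexin with the largest ganglion cell over progenitor ratio, at 27.8 and 26.6 CPM against 7.04 and 6.90 CPM (log2 ratios 1.98 and 1.94).

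Ephrin ligands went both ways in ganglion cell-like cells. *Efna2*, an A ephrin, was at 83.2 and 85.4 CPM against 32.1 and 30.8 CPM (log2 ratios 1.37 and 1.47), and *Efna3* at 16.8 and 13.6 CPM against 1.29 and 0.679 CPM (log2 ratios 3.69 [3.00 to 4.43] and 4.32 [3.45 to 5.31]). The B ephrins were lower, with *Efnb2* at 12.5 and 16.2 CPM against 35.8 and 40.8 CPM (log2 ratios -1.52 and -1.33) and *Efnb1* at 4.54 and 3.07 CPM against 9.37 and 9.20 CPM. *Epha5* was at 224 and 238 CPM in ganglion cell-like and 174 and 216 CPM in progenitor-like cells, and reached 292 and 413 CPM in amacrine or horizontal cell-like cells. *Ephb2* was likewise even, at 36.3 and 31.2 CPM against 32.7 and 34.2 CPM. *Epha6*, which has been linked to the nasal-temporal map, was scarce throughout and at 1.70 and 2.19 CPM in ganglion cell-like cells. *Efna5* was at 32.9 and 30.5 CPM in ganglion cell-like and 38.0 and 30.9 CPM in progenitor-like cells.

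The ganglion cell-like class joins a shallow cluster (median 1757 UMIs per cell) and a deep cluster (median 16124 UMIs). In the deep cluster *Dcc* was at 53.0 and 43.0 CPM and *Robo2* at 75.2 and 70.8 CPM. In the shallow cluster *Dcc* was at 27.9 and 8.91 CPM from 14 and 7 UMIs, and *Robo2* at 29.9 and 24.2 CPM. *Unc5b* was low in both, at 1.99 and 1.86 CPM in the deep and 5.99 and 6.37 CPM in the shallow cluster. The order against progenitor-like cells was thus the same in both clusters for these 3 genes.

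The neurogenic precursor-like cells, which are leaving the cell cycle, were compared with the same progenitor-like cells. Of 39 members tested, 6 were at least 2-fold higher than in progenitor-like cells in both libraries, beside 4.73% of all genes, namely *Dcc*, *Epha3*, *Robo1*, *Robo2*, *Sema6c* and *Slit1*. A further 5 were at least 2-fold lower, beside 5.32%, namely *Efnb2*, *Efnb3*, *Sema4d*, *Unc5a* and *Unc5b*. *Epha3*, an Eph receptor, peaked in this class within the retina, at 16.3 and 14.6 CPM against 2.17 and 1.52 CPM in progenitor-like and 4.83 and 5.49 CPM in ganglion cell-like cells. *Unc5b* was at 3.01 and 1.86 CPM.

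**Figure D3:**
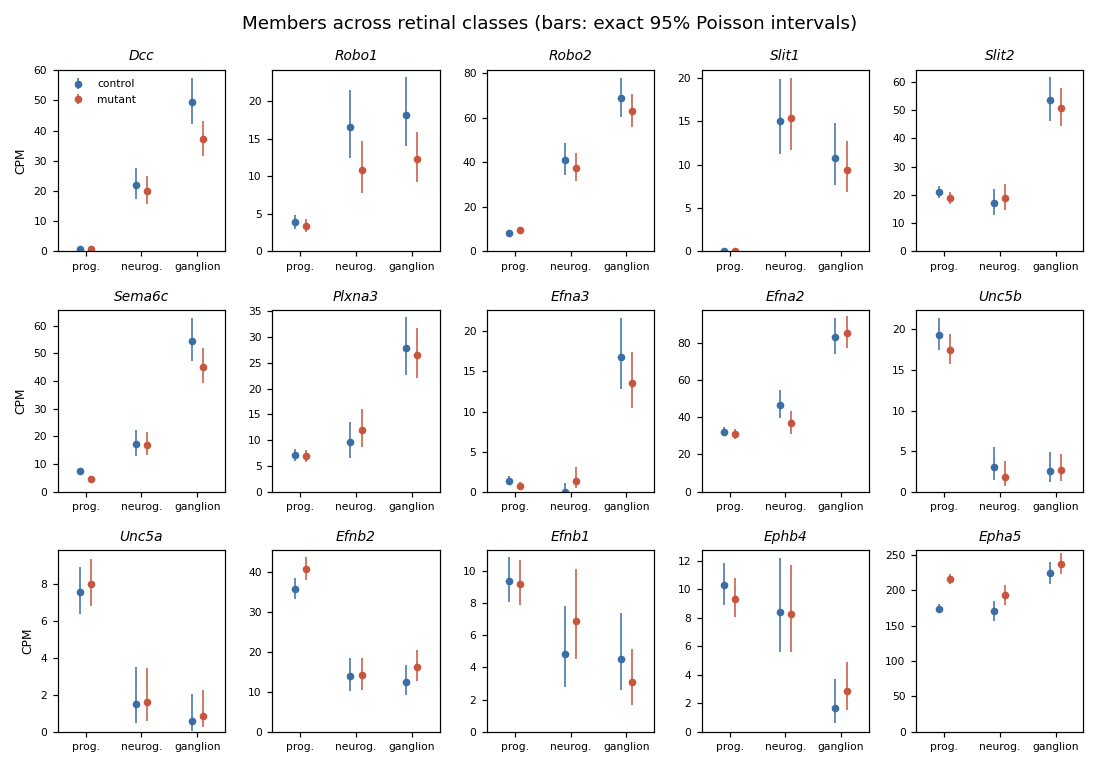
CPM of 15 members in retinal progenitor-like, neurogenic precursor-like and ganglion cell-like cells of the control (blue) and mutant (red) library, with exact 95% Poisson intervals and every axis from 0. *Dcc*, *Robo1*, *Robo2*, *Slit1* and *Sema6c* lie higher in both later classes, and *Unc5b*, *Unc5a* and *Efnb2* lie lower.

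RPE-like cells held another set of cues. The class had 253 control and 152 mutant cells, and 9 of its 10 markers were found in both libraries, with summed levels of 13865 and 9745 CPM. Of 37 members tested against progenitor-like cells, 7 were at least 2-fold higher in both libraries, beside 11.0% of all genes, and 5 were at least 2-fold lower, beside 6.7%. *Ntn1*, the secreted attractant of the Dcc pathway, was at 21.2 and 28.8 CPM (44 and 43 UMIs) in RPE-like against 0.57 and 0.523 CPM in progenitor-like cells, with log2 ratios of 5.22 [4.24 to 6.32] and 5.78 [4.77 to 6.94]. Surface ectoderm-like cells came next for *Ntn1*, at 17.2 and 13.6 CPM from 11 and 8 UMIs. *Slit3*, a Slit with few UMIs in the retina, was at 19.3 and 20.8 CPM in RPE-like cells, and mesenchyme-like cells followed at 14.3 and 11.3 CPM.

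Several receptors also differed in level between RPE-like and progenitor-like cells. *Epha4*, an Eph receptor that binds both ephrin classes, was at 55.0 and 38.8 CPM against 9.01 and 9.83 CPM in progenitor-like cells (log2 ratios 2.61 [2.26 to 2.96] and 1.98 [1.53 to 2.41]). *Epha7* was at 29.0 and 23.4 CPM against 2.85 and 2.14 CPM (log2 ratios 3.35 [2.79 to 3.90] and 3.45 [2.76 to 4.14]). *Plxna1*, a plexin receptor of secreted semaphorins, was at 31.9 and 23.4 CPM against 6.32 and 5.54 CPM, and *Plxnb2* at 113 and 83.7 CPM against 37.4 and 32.4 CPM. *Epha5*, in contrast, was lower in RPE-like cells, at 102 and 81.7 CPM, without passing 2-fold in the control library. *Robo1*, at 15.4 and 18.7 CPM, and *Robo2*, at 24.1 and 26.1 CPM, also passed upwards in RPE-like cells, as they did in ganglion cell-like cells. The 5 members that passed downwards were *Efnb3*, *Plxnc1*, *Sema3a*, *Unc5a* and *Unc5b*, with *Unc5b* at 3.38 and 2.68 CPM.

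Endothelial-like cells stood apart from the mesenchyme-like cells around them mainly by fewer members. Of 44 members tested against mesenchyme-like cells, 4 were at least 2-fold higher in both libraries, beside 6.36% of all genes, and 21 were at least 2-fold lower, beside 14.6%. *Plxnd1* (chromosome 6, 115954811 to 115995005), the plexin that restrains vessel sprouts in answer to semaphorin 3E, was at 267 and 224 CPM against 7.37 and 4.60 CPM (log2 ratios 5.18 [4.91 to 5.46] and 5.61 [5.30 to 5.92]). *Robo4* (chromosome 9, 37401897 to 37415115), the Robo of vessels, was at 54.7 and 45.0 CPM from 96 and 81 UMIs, against 2 and 0 UMIs in mesenchyme-like cells, where a count of 0 allows up to 0.121 CPM, so that it was not counted among the 4. *Efna1* was at 61.5 and 61.7 CPM against 1.93 and 1.17 CPM. *Unc5b* was at 26.2 and 13.3 CPM against 7.98 and 6.18 CPM, and *Sema6d* was the remaining higher member. The arterial ligand *Efnb2* and the venous receptor *Ephb4* had 54 UMIs in each library and 104 and 73 UMIs (59.3 and 40.6 CPM) in endothelial-like cells. *Sema3e*, the ligand of *Plxnd1*, had 0 UMIs in the endothelial-like cells of both libraries, which allows up to 1.71 and 1.67 CPM, and was at 4.78 and 4.60 CPM in mesenchyme-like and 12.5 and 6.80 CPM (8 and 4 UMIs) in surface ectoderm-like cells.

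Neighbouring members of a family had their highest levels in different cells. *Efna1*, *Efna3* and *Efna4* lie within 1 stretch of chromosome 3 (89271733 to 89338028). Yet *Efna1* led in endothelial-like cells, *Efna3* in ganglion cell-like cells, and *Efna4* reached 79.0 and 79.8 CPM in mesenchyme-like and 79.9 and 57.8 CPM in surface ectoderm-like cells. *Robo3* lies next to *Robo4* on chromosome 9 (37415669 to 37433246), and 5 of its 6 UMIs in the control and 6 of its 8 in the mutant were in ganglion cell-like cells.

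Periocular mesenchyme-like cells, which had the most members at 10 CPM or more, were not uniform. They formed 6 clusters, here called by number and leading genes: 3 (*Tfap2b*, *Twist2*), 4 (cycling genes), 9 (*Aldh1a2*, *Nrp2*), 11 (*Scx*, *Meox1*), 12 (*Col9a3*, *Sox9*) and 15 (*Osr2*, *Foxl2*). Of 40 members with enough UMIs, 23 had the same leading cluster in both libraries, beside 48.9% of all genes, and 2 led there by 2-fold in both, beside 3.85%.

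*Sema3c*, a secreted semaphorin, was one of these 2, at 94.7 and 88.5 CPM in cluster 3, with 26.4 and 23.7 CPM in the next cluster and 8.50 and 6.28 CPM in cluster 9. *Slit2* was the other, at 54.3 and 16.4 CPM in cluster 15. *Sema3a* also led in cluster 15, at 138 and 122 CPM, and was lowest in cluster 9, at 6.38 and 13.8 CPM. Over the whole class *Sema3a* was at 50.8 and 53.9 CPM, with surface ectoderm-like cells at 64.3 and 45.9 CPM. *Slit3* was highest in cluster 9, at 25.5 and 17.6 CPM, with cluster 15 close to it at 22.2 and 15.5 CPM.

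The receptors *Epha3* and *Epha4* led in other clusters. *Epha3* was at 144 and 147 CPM in cluster 9 and 158 and 114 CPM in cluster 11, against 6.45 and 8.65 CPM in cluster 3. *Epha4* led in cluster 11 at 81.4 and 56.3 CPM, with cluster 9 at 61.3 and 56.2 CPM. The ligand *Efnb2* shared both clusters, at 35.0 and 38.6 CPM in cluster 11 and 32.9 and 29.6 CPM in cluster 9 against 3.74 and 4.85 CPM in cluster 3. *Robo1* led in cluster 11 too, at 75.7 and 68.4 CPM. *Efnb1* and *Efna2* were more even over the mesenchyme clusters of both libraries. *Efna2* lay between 80.5 and 112 CPM in every one of them, and *Efnb1* between 36.9 and 80.8 CPM. In the class as a whole *Efnb1* was at 58.4 CPM in both libraries and *Efna2* at 105 and 93.5 CPM. The unnamed cluster 17, outside this class, had *Efnb1* at 93.8 and 69.0 CPM, beside 80.8 and 75.1 CPM in cluster 9, the highest mesenchyme cluster. *Ephb3*, a receptor of B ephrins, was at 21.3 and 20.8 CPM and led in cluster 15, at 48.5 and 38.9 CPM. *Epha7* was at 23.3 and 23.7 CPM over the class, *Unc5c* at 8.74 and 9.57 CPM and *Sema5a* at 41.2 and 43.6 CPM.

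**Figure D4:**
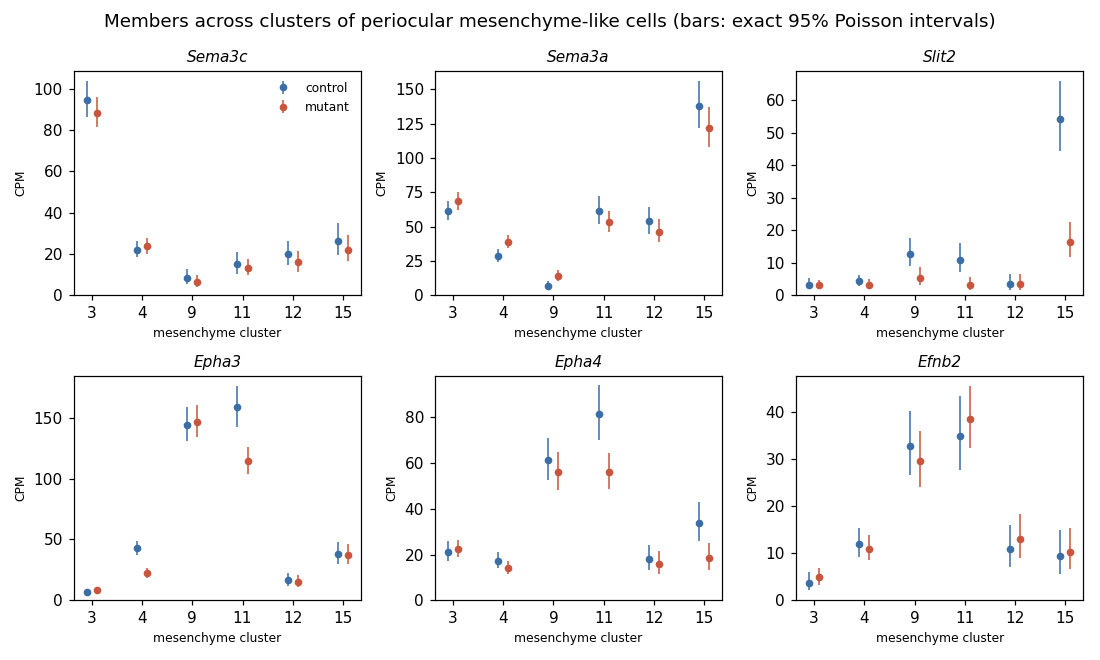
CPM of 6 members in the 6 clusters of periocular mesenchyme-like cells of the control (blue) and mutant (red) library, with exact 95% Poisson intervals and axes from 0. *Sema3c* peaks in cluster 3, *Sema3a* and *Slit2* in cluster 15, and *Epha3*, *Epha4* and *Efnb2* in clusters 9 and 11, with *Slit2* in cluster 15 at 54.3 CPM in the control and 16.4 CPM in the mutant library.

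Smaller classes added a few leading genes. Melanocyte-like and Schwann or neural crest-like cells, which share the marker *Sox10*, were the classes with most *Plxna4*, at 34.7 and 27.2 CPM and at 56.2 and 47.7 CPM. *Epha7* reached 52.9 and 47.7 CPM in the Schwann or neural crest-like class. Muscle precursor-like cells led for *Sema6a*, at 64.4 and 51.0 CPM from 39 and 35 UMIs. *Plxnb3*, one of the 8 scarce members, had 10 and 8 UMIs in Schwann or neural crest-like cells and 2 and 3 UMIs elsewhere.

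The genotypes were compared within each class, as the log2 ratio of mutant over control CPM for members with at least 50 UMIs there. Outside red blood cells this gave 193 member and class pairs, of which 4 passed 2-fold, all lower in the mutant library. The shares of all genes that passed 2-fold either way in the same class stand beside each count. No member passed in retinal progenitor-like (0 of 41, beside 0.333%), neurogenic precursor-like (0 of 24, beside 0.317%) or ganglion cell-like cells (0 of 28, beside 0.317%). The same held for endothelial-like (0 of 11, beside 0.701%), surface ectoderm-like (0 of 4, beside 1.88%), melanocyte-like (0 of 3, beside 0.872%), Schwann or neural crest-like (0 of 3, beside 1.54%) and macrophage-like cells (0 of 2, beside 1.98%). The median over the 41 members in progenitor-like cells was -0.12 beside -0.02 over all genes, and over the 20 in RPE-like cells -0.09 beside -0.03.

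*Slit2* (chromosome 5, 47983138 to 48307733) was the member that passed in mesenchyme-like cells, as 1 of 48, beside 0.638% of all genes (0.417% lower). It was at 10.7 CPM (210 UMIs) in the control and 4.68 CPM (116 UMIs) in the mutant library, a log2 ratio of -1.18 [-1.53 to -0.85]. Cluster 15, with 132 control and 166 mutant cells, held 103 and 38 of these UMIs (log2 ratio -1.70 [-2.30 to -1.18]). *Slit2* was also lower in cluster 11 (25 and 11 UMIs, -1.78 [-3.02 to -0.78]) and cluster 9 (36 and 18 UMIs, -1.21 [-2.15 to -0.39]), and near even in clusters 3 (-0.06), 4 (-0.39) and 12 (0.03). Without cluster 15 the class was at 6.02 and 3.47 CPM, a log2 ratio of -0.79 [-1.23 to -0.36], and without cells over 2000 UMIs the ratio of the class was -0.39, so that the 2-fold call was lost both ways. The summed mesenchyme markers were at 3647 and 3693 CPM. In progenitor-like and ganglion cell-like cells *Slit2* was at 21.0 and 18.9 CPM and at 53.7 and 50.7 CPM.

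In RPE-like cells 1 of 20 members passed, beside 2.67% of all genes (1.68% lower). This was *Sema3b* (chromosome 9, 107597674 to 107609229), a secreted semaphorin, at 26.6 CPM (55 UMIs) in the control and 11.4 CPM (17 UMIs) in the mutant library, a log2 ratio of -1.17 [-2.10 to -0.42]. The 2-fold call was lost with a mitochondrial limit of 5% per cell (-0.43) and without cells over 20000 (-0.91) or 2000 UMIs (-0.51). The summed RPE markers moved in the same direction, from 13865 to 9745 CPM, and their part in the result was not tested. Intervals outside 0 numbered 4 of 20 in this class, all lower in the mutant library, with no share of all genes taken for it alone. Besides *Sema3b*, these RPE-like values were *Efna2* (46.8 to 28.1 CPM, -0.72), *Epha4* (55.0 to 38.8 CPM, -0.49) and *Plxnb2* (113 to 83.7 CPM, -0.43). *Ntn1* was at 44 and 43 UMIs there and *Slit3* at 40 and 31, with no drop in CPM.

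The remaining 2 rested on small classes. *Efna2* in amacrine or horizontal cell-like cells, as 1 of 7 members beside 0.985% of all genes (0.54% lower), was at 108 CPM (51 UMIs) and 52.4 CPM (33 UMIs), a log2 ratio of -1.03 [-1.72 to -0.38], and fell short of 2-fold in 6 of 12 alternatives, at -0.89 at the least. *Plxna2* in muscle precursor-like cells, as 1 of 2 members beside 2.05% of all genes (1.52% lower), was at 57.8 CPM (35 UMIs) and 24.8 CPM (17 UMIs), a log2 ratio of -1.18 [-2.15 to -0.35], with 15.4% of these UMIs from 1 cell. The summed muscle precursor markers moved in the same direction, from 5424 to 3818 CPM, and their part in the result was not tested. The amacrine or horizontal cell markers were at 3059 and 3074 CPM. These classes held 44 and 60 and 25 and 29 cells. In red blood cell-like cells *Epha5*, the only member deep enough there, had 5 and 65 UMIs (log2 ratio 2.18 [1.12 to 4.09]), with 14.3% of them from 1 cell and beside 9.96% of all genes past 2-fold.

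Of the 193 intervals, which cover counting error alone, 39 lay outside 0, the 4 above included, beside 13.8% of the gene and class pairs of all genes. In progenitor-like cells there were 11 of 41, beside 15.2% of all genes, and 8 of these were lower in the mutant library, beside 9.85%. *Epha5* was the deepest, with 3366 and 4133 UMIs (174 to 216 CPM, 0.31 [0.24 to 0.38]), and *Efnb3* (22.6 to 26.7 CPM, 0.24) and *Efnb2* (35.8 to 40.8 CPM, 0.19) were also higher. The lower ones included *Sema6c* (7.30 to 4.70 CPM, -0.63 [-1.03 to -0.24]), *Sema3a* (4.56 to 3.03 CPM, -0.58) and *Efna5* (38.0 to 30.9 CPM, -0.30). In ganglion cell-like cells 3 of 28 lay outside 0, all lower, among them *Dcc* (-0.41 [-0.73 to -0.10]) and *Robo1* (-0.56 [-1.11 to -0.02]). In endothelial-like cells there were 4 of 11, all lower. Among these *Unc5b* went from 46 to 24 UMIs (-0.95 [-1.75 to -0.23]), with 14.3% of them from 1 cell, and *Ephb4* from 104 to 73 (-0.54). Mesenchyme-like cells had 10 of 48, of which 8 were lower. No share of all genes was taken for ganglion cell-like, endothelial-like or mesenchyme-like cells alone. Ratios within mesenchyme clusters are not among the 193 and have no share of all genes beside them. They were taken only for *Slit2*, *Slit3*, *Sema3a*, *Sema3c*, *Epha3* and *Epha4*. *Epha3* in mesenchyme cluster 4 was at 42.7 and 22.2 CPM (-0.94 [-1.25 to -0.63]) and was also lower in cluster 11 (-0.47 [-0.68 to -0.26]), with cluster 9 at 0.03. *Slit3* was lower in cluster 9 (-0.53 [-1.05 to -0.01]). *Epha4* was lower in clusters 15 (-0.85 [-1.46 to -0.28]) and 11 (-0.53 [-0.83 to -0.24]), and *Sema3a* was higher in cluster 9 (18 and 46 UMIs, 1.06 [0.30 to 1.98]) and cluster 4 (0.43 [0.14 to 0.73]). The spread between embryos is unknown, so that none of these can be told apart from differences between pools.

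**Figure D5:**
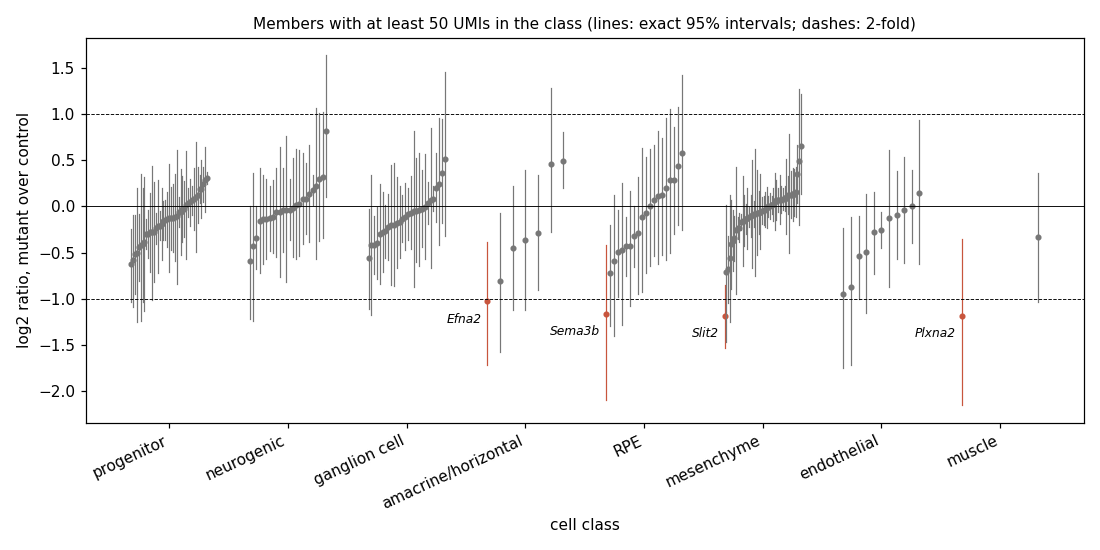
Log2 ratio of mutant over control CPM for each member with at least 50 UMIs in 8 cell classes, ordered by size within a class, with exact 95% intervals and dashed lines at 2-fold. The 4 red points past the lower line are *Efna2* in amacrine or horizontal cell-like, *Sema3b* in RPE-like, *Slit2* in mesenchyme-like and *Plxna2* in muscle precursor-like cells, and no point lies past the upper line.

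Other genes of the guidance pathways (neuropilins, repulsive guidance molecules, netrin-G proteins, intracellular effectors and position markers) came from a list of 69 genes, of which 61 were deep enough in some class. Of their 295 gene and class pairs, 4 passed 2-fold, all lower in the mutant library. In RPE-like cells there were 2 of 30, beside the 2.67% of all genes past 2-fold either way, namely *Ntng1*, a membrane-bound netrin-G (152 to 74.3 CPM, -1.02 [-1.35 to -0.71]), and *Adora2b*, an adenosine receptor (28.5 to 11.4 CPM, -1.27 [-2.20 to -0.53]). In macrophage-like cells there were 2 of 11, beside 1.98% of all genes, namely the nasal transcription factor *Hmx1* (44 to 8 UMIs, -2.31) and *Dpysl3*, an effector of semaphorin signals (41 to 13 UMIs, -1.57). The leading genes of that class included *S100a8*, *S100a9* and *Cpa3*, which are not among the macrophage markers used. The summed macrophage markers went from 10496 to 13073 CPM, and the part of the cell mix in these values was not tested. In progenitor-like cells 0 of 50 passed, in ganglion cell-like cells 0 of 40 and in mesenchyme-like cells 0 of 50.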

How the data were processed

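Single cells of e13.5 mouse eye cups were measured in 2 libraries, control *Myrf* fl/fl and mutant *Rx>cre* *Myrf* fl/fl, each from 3 pooled samples. The deposited values are UMI counts per gene and barcode, which the authors made with Cell Ranger 7.1.0 on mm10 without normalization, per the submitters' processing notes, which also name Seurat 4.1.1. The control library summed to 63483835 UMIs and the mutant one to 75228861.

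Filtering removed the barcodes under 200 genes (5 and 9) or above 15% mitochondrial UMIs (515 and 371), and doublets marked by Scrublet in scanpy 1.11.5 (1.23% and 1.02%). Cells were integrated and clustered in Seurat 5.3.0 (R 4.3.3) with 2000 variable features less the 10 members among them, 30 dimensions and resolution 0.8, so that members did not decide the classes. A cluster took a class name when its markers' mean z score was at least 1, with at least 3, and not under 50%, of the markers detected in 10% of its cells. The clusters were known when these thresholds were chosen. UMIs were summed per class and library in Python 3.11.15 with scipy 1.17.1. Log2 ratios between libraries had 1 UMI added to each sum, and those between classes or positions had none. Intervals are exact Poisson or conditional binomial at 95%. UMIs still share cells, so they cover counting error only. The comparison of sums was also run on Poisson counts simulated from the control RPE-like sums. These follow the counting model of the intervals and hold no spread between cells or embryos, so the run cannot judge such spread.

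The members, marker lists and list of other guidance genes were chosen with earlier results of these data known. Members named were those past 2-fold between libraries or by position, those with a specific leading class, and a list known from the visual pathway or vessels. The others named were chosen after their values were seen. Alternatives were the doublets, UMI and mitochondrial limits, features, integration, resolution, class total, weight of cells, minimum UMIs, thinning of cells and, added after seeing the data, removal of shared barcodes. A further planned comparison by position is not reported here. Promoters came from RefSeq and matched 56 members.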

Additional observations from a re-analysis of the deposited data

How the results depend on the processing

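No paired analysis was possible because each genotype had 1 library with no replicate number. Over the alternatives, 107 of the summary counts stayed within 1.5 times the value reported and 19 moved, and of the log2 ratios of single genes 169 stayed within the 95% counting interval of the value reported and 12 moved outside it, without a change of sign. Member and class pairs past 2-fold between the libraries numbered 4, and became 16 at a minimum of 20 UMIs, 1 at 100, 119 with no minimum, 16 with means over cells, 1 without cells over 20000 UMIs and 0 without cells over 2000. By position, 4 members passed, 8 at a minimum of 10 UMIs and 7 with a mitochondrial limit of 5%. Without cells over 20000 UMIs, 5 members in place of 9 led 2-fold in 1 class, and 0 in place of 1 had over 10 UMIs per 100 red blood cell-like cells. Neurogenic over progenitor gave 11, and 6 with doublets kept. Ganglion cell over progenitor gave 24, and 15 with means over cells. The limit of 2000 UMIs kept 2280 cells in 10 classes. There 2 members kept 1 leading class, 1 of them 2-fold, and calls fell to 0 by position, 1 for ganglion cell, 1 for neurogenic, 0 for RPE and 0 for endothelial-like cells, with fewer cells counted. The cause was not tested. Those intervals are wide, and a value inside one can lose the 2-fold call. *Slit2* in mesenchyme-like cells ranged from -1.32 to -0.39 (under 2-fold in 1 of 14 alternatives, without cells over 2000 UMIs), *Sema3b* in RPE-like cells from -1.69 to -0.43 (3 of 14), *Efna2* in amacrine or horizontal cell-like cells from -1.15 to -0.89 (6 of 12) and *Plxna2* in muscle precursor-like cells from -1.29 to -1.04. Dorsal over ventral of *Unc5b* ranged from 3.12 to 4.43 in control cells and from 2.42 to 4.80 in mutant ones, that of *Efnb2* from 1.97 to 2.53 and from 1.43 to 2.45, that of *Efnb1* from 1.6 to 3.63 and from 1.92 to 3.07, that of *Epha5* from 0.79 to 1.25 and from 0.73 to 1.28, and that of *Unc5a* from -1.77 to -0.77 and from -2.67 to -1.36. Clusters of mesenchyme were not followed over other clusterings, in which their numbers change.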
